A study of Homo sapiens with 10 samples.

Results

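The first 3 hours in which MiaPaCa-2 cells were exposed to stellate cell supernatant were set against control cells. The labels mark these as controls at 0 h and 24 h and do not state whether they received a medium change or any supernatant. MiaPaCa-2 is a human line derived from a pancreatic tumour, and pancreatic stellate cells are the fibroblast-like cells of the tissue around such tumours. Arrays were chosen by their labelled times: exposed cells at 1, 2 and 3 h (3 arrays), against control cells at 0 h and 24 h (2 arrays), 5 of the 10 arrays of the series. The stellate cells that gave the supernatant had been primed with pooled supernatant of 8 tumour cell lines, and the labels name no control given supernatant of unprimed stellate cells or of the tumour cell lines alone. Exposed cells of 4 to 7 h (4 arrays) entered the fits to estimate the spread, and the exposed cells of 24 h (1 array) did not. There was 1 array at each time, nothing states that arrays came from separate cultures, and the p-values therefore measure only the spread between these arrays. That spread includes change with time and, in the fit to both controls, the gap between them. The rest of it may be technical. The array, Affymetrix U133 Plus 2.0, reports each transcript by 1 or more probe sets, and the values are log2 intensities, so that a difference of 1 is a doubling. The number of arrays, not a read depth, limits the precision.

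A cell that meets inflammatory cytokines frees the transcription factor NF-kB from its inhibitors, and within the first hours NF-kB raises chemokines together with the inhibitors that shut it off again. Growth factors act through MAP kinases and raise a first wave of transcription factors, such as the EGR family, and the phosphatases that end the signal. Metallothioneins are small proteins that bind zinc and copper, and they and the zinc exporter SLC30A1 are raised by the zinc-sensing factor MTF1 through metal response elements in their promoters.

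The tested comparison was the mean of the 1, 2 and 3 h arrays minus the mean of both controls, fitted in limma with Benjamini-Hochberg adjustment over 11865 genes and a threshold of 0.05 on the adjusted p. Of these genes 233 passed, which is 1.96%, with 100 higher (0.843%) and 133 lower (1.12%) in hours 1 to 3. With cyclic loess scaling it was 169 higher against 124 lower. At an unadjusted p under 0.05, 2851 of the 11865 genes passed in limma. Counts on the gene lists below are to be set against these shares of all tested genes. Several probe sets stood for 65 of the 100 higher and 85 of the 133 lower genes. All of a gene's probe sets, at whatever level, shared the direction in 42 and 58 of these. All 3 exposed arrays lay above both controls in 1883 genes (15.9%) and below both in 2348 genes (19.8%), and each of the 233 genes was among them. The gap to the nearer control was 1 log2 unit or more in 26 genes above the controls (0.219%) and in 0 genes below them. With each probe set on its own 48 lay above and 8 below by that gap, and without the 24 h control 105 above and 142 below. LINC00304 lay just inside that margin at 1.00, and DUSP1 (0.998) and CEBPD (0.993) just outside it. Among 3593 probe sets tested apart for want of a single gene symbol, 29 were higher and 34 lower past the threshold. Among those higher, probe sets with no symbol lay above both controls by 1.83 and 2.04, and one that lists MIR6732 and ZC3H12A by 1.29. Among those lower, a probe set with no symbol lay below both controls by 1.19 and one that lists several H4 histone genes by 1.08. Of the 100 risen genes 9 had a control mean under the level of the filter on low values (log2 5.79), MT1M, MAP3K8, SPIDR and IL6R among them, so the sizes of their differences rest on a background reading. Among the others the largest rises were of SLC30A1, HMOX1, EGR3, CXCL3, NFKBIZ and SKIL, and the largest falls of DDIT4, ZDHHC8BP and CDKN1B.

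The calls depended on single arrays, above all the falls. Without the 2 h array 31 genes passed, 28 higher and 3 lower, and with only the 5 arrays of hours 1 to 3 and the controls 26 passed, 25 higher and 1 lower. Leaving out the 5 h array gave 90 genes, the 6 h array 93 and the 1 h array 509. With the 24 h control alone 23 genes passed, and with the 0 h control alone 1823. In each of the 9 fits that left out 1 array, 21 of the 233 genes passed, 20 higher and 1 lower. The 20 were MT1M, MT1F, MT1X, MAP3K8, CXCL1, CXCL2, CXCL3, CXCL8, NFKBIZ, TNFAIP3, NFKBIA, TNFSF9, IRF1, CEBPD, TRIB1, BHLHE40, DUSP1, IER5, RGS16 and SPIDR, and the 1 was MTRFR. The probe sets of SPIDR disagreed, with a difference of 2.1 for the probe set used and of 0.42, 0.07 and -0.26 for the others. Of the 3 probe sets of TRIB1, 2 shared the direction.

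**Figure D1:**
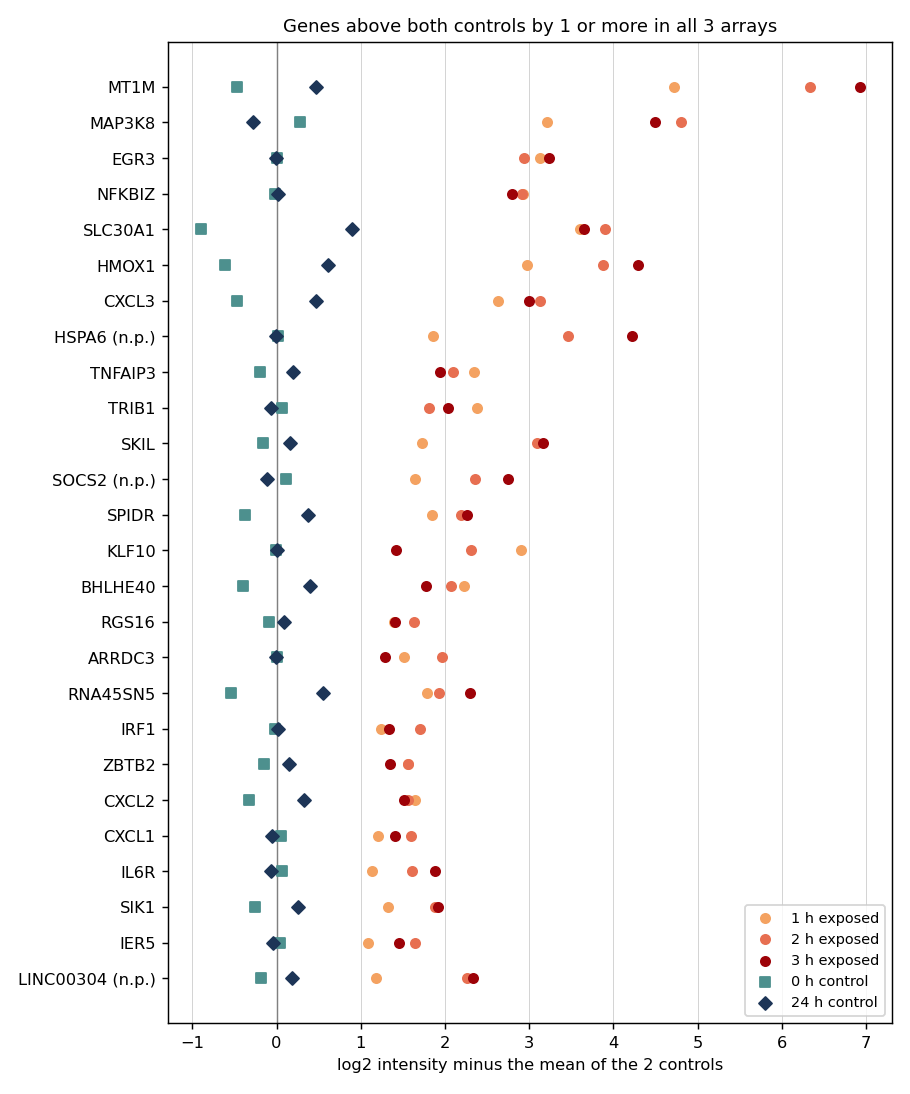
The 26 genes whose 1, 2 and 3 h arrays (circles) all lay above both controls (square, 0 h; diamond, 24 h) by 1 log2 unit or more, ordered by that gap, with log2 intensity minus the mean of the 2 controls on the x axis. MT1M had the widest gap, 4.25, and 3 genes marked n.p. (HSPA6, SOCS2 and LINC00304) did not pass the test.

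Promoters of 9 of the genes described below are given from RefSeq (GRCh38.p14), each a window of 300 bases around the start of the gene. They show the letters that metal response elements and NF-kB sites are recognised by, in the 2 gene groups that rose together. In MT1X (chr16:56682220-56682519, plus strand) and SLC30A1 (chr1:211579112-211579411, minus strand) capitals mark the core of the metal response element, TGCACNC or TGCGCNC on either strand.
MT1X: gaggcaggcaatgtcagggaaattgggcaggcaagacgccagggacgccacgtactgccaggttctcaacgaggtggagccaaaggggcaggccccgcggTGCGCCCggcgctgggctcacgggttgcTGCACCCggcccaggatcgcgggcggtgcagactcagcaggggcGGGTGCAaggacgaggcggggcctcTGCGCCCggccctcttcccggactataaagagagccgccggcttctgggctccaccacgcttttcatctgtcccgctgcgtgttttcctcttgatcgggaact
SLC30A1: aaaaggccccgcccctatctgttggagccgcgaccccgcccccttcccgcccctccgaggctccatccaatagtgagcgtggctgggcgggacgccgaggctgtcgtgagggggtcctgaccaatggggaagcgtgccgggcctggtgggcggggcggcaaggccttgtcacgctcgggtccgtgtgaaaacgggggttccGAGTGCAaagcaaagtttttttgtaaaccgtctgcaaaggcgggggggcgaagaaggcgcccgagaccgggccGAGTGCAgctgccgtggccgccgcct
In CXCL1 (chr4:73869143-73869442, plus strand), CXCL2 (chr4:74099146-74099445, minus strand), CXCL3 (chr4:74038640-74038939, minus strand), NFKBIZ (chr3:101827740-101828039, plus strand), TNFAIP3 (chr6:137867009-137867308, plus strand) and MAP3K8 (chr10:30433771-30434070, plus strand) capitals mark matches to the NF-kB consensus on either strand, with overlapping matches joined. The consensus was GGGRNNYYCC, where R is A or G, Y is C or T and N is any letter. CXCL8 (chr4:73740319-73740618, plus strand), which also rose, had 0 full matches in this window and is shown without capitals. Its stretch ggaatttcct departs from the consensus, read on the other strand, in the last letter only. The lack of a full match therefore does not mean that the window lacks an NF-kB site.
CXCL1: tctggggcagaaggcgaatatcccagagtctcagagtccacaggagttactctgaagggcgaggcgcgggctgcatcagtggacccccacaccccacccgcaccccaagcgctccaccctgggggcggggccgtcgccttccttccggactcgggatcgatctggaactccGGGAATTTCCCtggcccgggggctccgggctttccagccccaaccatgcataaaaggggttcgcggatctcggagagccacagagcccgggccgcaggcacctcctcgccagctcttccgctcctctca
CXCL2: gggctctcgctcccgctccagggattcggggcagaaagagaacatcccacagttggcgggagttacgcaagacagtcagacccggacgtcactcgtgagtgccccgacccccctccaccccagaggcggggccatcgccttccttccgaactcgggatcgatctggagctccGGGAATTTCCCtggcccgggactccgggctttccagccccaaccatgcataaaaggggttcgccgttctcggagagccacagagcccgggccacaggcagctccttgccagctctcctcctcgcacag
CXCL3: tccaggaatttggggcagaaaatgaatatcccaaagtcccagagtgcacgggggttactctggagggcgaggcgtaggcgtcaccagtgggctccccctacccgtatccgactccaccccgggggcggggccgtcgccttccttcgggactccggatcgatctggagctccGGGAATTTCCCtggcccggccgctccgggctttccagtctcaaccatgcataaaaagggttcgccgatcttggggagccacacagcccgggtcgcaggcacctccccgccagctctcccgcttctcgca
CXCL8: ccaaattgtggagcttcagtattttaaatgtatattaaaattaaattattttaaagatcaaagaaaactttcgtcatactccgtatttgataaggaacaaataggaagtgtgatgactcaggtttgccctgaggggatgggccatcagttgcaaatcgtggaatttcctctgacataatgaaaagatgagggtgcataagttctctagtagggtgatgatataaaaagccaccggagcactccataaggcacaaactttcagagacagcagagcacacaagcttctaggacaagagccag
NFKBIZ: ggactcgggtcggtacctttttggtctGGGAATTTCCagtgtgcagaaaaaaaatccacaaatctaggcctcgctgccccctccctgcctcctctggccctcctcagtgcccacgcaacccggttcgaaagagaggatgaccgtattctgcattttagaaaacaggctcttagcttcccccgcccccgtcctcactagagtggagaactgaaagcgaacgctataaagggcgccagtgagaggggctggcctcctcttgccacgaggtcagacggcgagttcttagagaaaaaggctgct
TNFAIP3: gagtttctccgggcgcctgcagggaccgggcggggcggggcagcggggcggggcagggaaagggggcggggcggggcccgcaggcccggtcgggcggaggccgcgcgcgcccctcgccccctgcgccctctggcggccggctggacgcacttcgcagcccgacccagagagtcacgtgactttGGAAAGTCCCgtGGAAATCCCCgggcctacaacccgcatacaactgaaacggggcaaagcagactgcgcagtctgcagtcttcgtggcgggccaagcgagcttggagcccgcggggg
MAP3K8: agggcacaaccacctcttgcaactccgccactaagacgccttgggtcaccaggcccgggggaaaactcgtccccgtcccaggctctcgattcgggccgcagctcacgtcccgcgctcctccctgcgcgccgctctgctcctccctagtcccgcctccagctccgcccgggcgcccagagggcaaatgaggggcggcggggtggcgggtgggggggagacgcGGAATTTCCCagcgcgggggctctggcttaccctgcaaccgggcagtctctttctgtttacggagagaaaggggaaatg

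The MT1X window held 4 metal response cores and the SLC30A1 window 2, and the core also occurred in 39.2% of the 9669 promoters of tested genes in the table. It was present in 36 of the 72 promoters available for the 100 risen genes (50.0%) and in 46 of 108 for the 133 fallen genes (42.6%). The NF-kB consensus occurred in 18 of the 72 promoters of risen genes, in 3 of the 10 of the list of NF-kB feedback genes, in 12 of the 108 of fallen genes (11.1%) and in 13.1% of those of all tested genes. CXCL1, CXCL2 and CXCL3 carried the same 11 letters at nearly the same distance before the start, beginning 79, 78 and 79 bases upstream. AP-1 sites (TGACTCA or TGAGTCA) were in 7 of the 72 promoters of risen genes (9.72%) and in 3.02% of those of all tested genes. The windows of CXCL3, CXCL8, NFKBIZ, TNFAIP3 and MAP3K8 also held 1 metal response core each, not capitalised above. A match is a run of letters and not a measured site.

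MT1M, a metallothionein, had log2 intensities of 9.31, 10.93 and 11.51 at 1, 2 and 3 h, against 4.12 in the 0 h control and 5.06 in the 24 h control. It climbed at each of the first 3 hours, and no exposed array came near a control. The difference between the 3 exposed and 2 control arrays was 5.99 ± 0.51 (SE of the fit to 9 arrays, limma adjusted p = 0.000834). Both control values lay under the filter level of 5.79 and the gene entered the test through its exposed arrays, so the size of the difference depends on the background level and no fold is given. The list of metallothioneins held 10 tested genes, of which 7 rose, 0 fell and 3 did not pass, where 0.843% of all tested genes rose. With only the 5 arrays of hours 1 to 3 and the controls 1 of the 10 passed, MT1M, and MT1F and MT1X had adjusted p = 0.0626 and 0.0741. In the fit to 9 arrays MT1F rose by 1.60 ± 0.19, MT1G by 1.35 ± 0.18, MT1X by 1.15 ± 0.14, MT1E by 1.01 ± 0.14, MT1H by 1.00 ± 0.13 and MT2A by 0.64 ± 0.10. Exposed arrays read 12.93 to 14.52 for these 6 genes, above the 95th percentile of every array, and whether their probe sets were saturated was not tested. The 3 that did not pass were MT4 at 0.34, MT3 at 0.30 and TESMIN at -0.15, of which MT3 and MT4 are metallothioneins of brain and of stratified epithelium, and TESMIN encodes a testis protein with metallothionein-like motifs. The list's median difference was 1.00, and that of all tested genes -0.04. MT1HL1, a sequence of the family outside the list, rose by 0.98 ± 0.13. Members of the family share most of their coding sequence, so their probe sets cannot be read as fully separate measurements. Calls of MT1E, MT1G, MT2A and MT1HL1 ended without the 2 h array (adjusted p = 0.0509, 0.0520, 0.0657 and 0.0509), and these 4 and MT1H ended with the 24 h control alone (0.0525, 0.0561, 0.104, 0.0525 and 0.0557).

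SLC30A1, which exports zinc from the cell, read 13.08, 13.37 and 13.13 at 1, 2 and 3 h, against 8.58 in the 0 h control and 10.37 in the 24 h control. The exposed arrays were level with each other, and the controls differed by more from one another than any 2 exposed arrays did. The rise was 3.72 ± 0.76 (limma adjusted p = 0.0426, 13.1-fold). It passed in 3 of the 9 fits that left out 1 array, and ended without the 1, 2, 3, 5 or 6 h array or the 0 h control (adjusted p = 0.246 without the last). With only the 5 arrays of hours 1 to 3 and the controls SLC30A1 passed (limma adjusted p = 0.0337). Another probe set of the gene differed by 3.88, and the remaining one, at the level of unexpressed genes, by -0.09. SLC30A7, a zinc transporter of the secretory pathway, rose by 0.69 ± 0.11 (adjusted p = 0.0193), a call that ended without the 2 h array (0.0728) and against the 24 h control alone (0.0646). Of the 3 probe sets of SLC30A7, 2 went in that direction. The remaining 17 of 19 zinc transport genes, mostly importers of the SLC39 family and the sensor MTF1, did not pass, with differences from -0.61 to 0.32. Among them SLC39A1, SLC39A7 and SLC39A10 differed by -0.45, -0.59 and -0.55. The median of the 19 genes was -0.07 (0.01 after cyclic loess scaling).

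HMOX1, the haem-degrading enzyme raised by oxidative and metal stress, read 11.53, 12.44 and 12.86 at 1, 2 and 3 h, against 7.95 in the 0 h control and 9.18 in the 24 h control. Its level climbed through the 3 hours and stayed clear of both controls. It rose by 3.71 ± 0.71 (limma adjusted p = 0.0347, 13.1-fold), and the call ended without the 2, 3, 5 or 6 h array or the 0 h control (adjusted p = 0.217 without the last). OSGIN1, an oxidative stress gene that restrains growth, rose by 0.90 ± 0.13 (adjusted p = 0.0126, 0.0506 without the 2 h array and 0.101 against the 24 h control alone). With only the 5 arrays of hours 1 to 3 and the controls HMOX1 passed (limma adjusted p = 0.0337) and OSGIN1 did not (0.0866). Of 19 tested genes on the list of HMOX1 and targets of the antioxidant factor NRF2, 2 rose and 17 did not pass in the fit to 9 arrays. SRXN1, which repairs oxidised peroxiredoxins, and GCLC, of glutathione synthesis, were among the latter at 0.95 (adjusted p = 0.0626) and 0.98 (0.167). BACH1, the repressor of HMOX1 and not a member of the list, rose by 0.41 ± 0.09 (adjusted p = 0.0432), a call that held in 1 of the 9 fits, the one without the 24 h control.

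**Figure D2:**
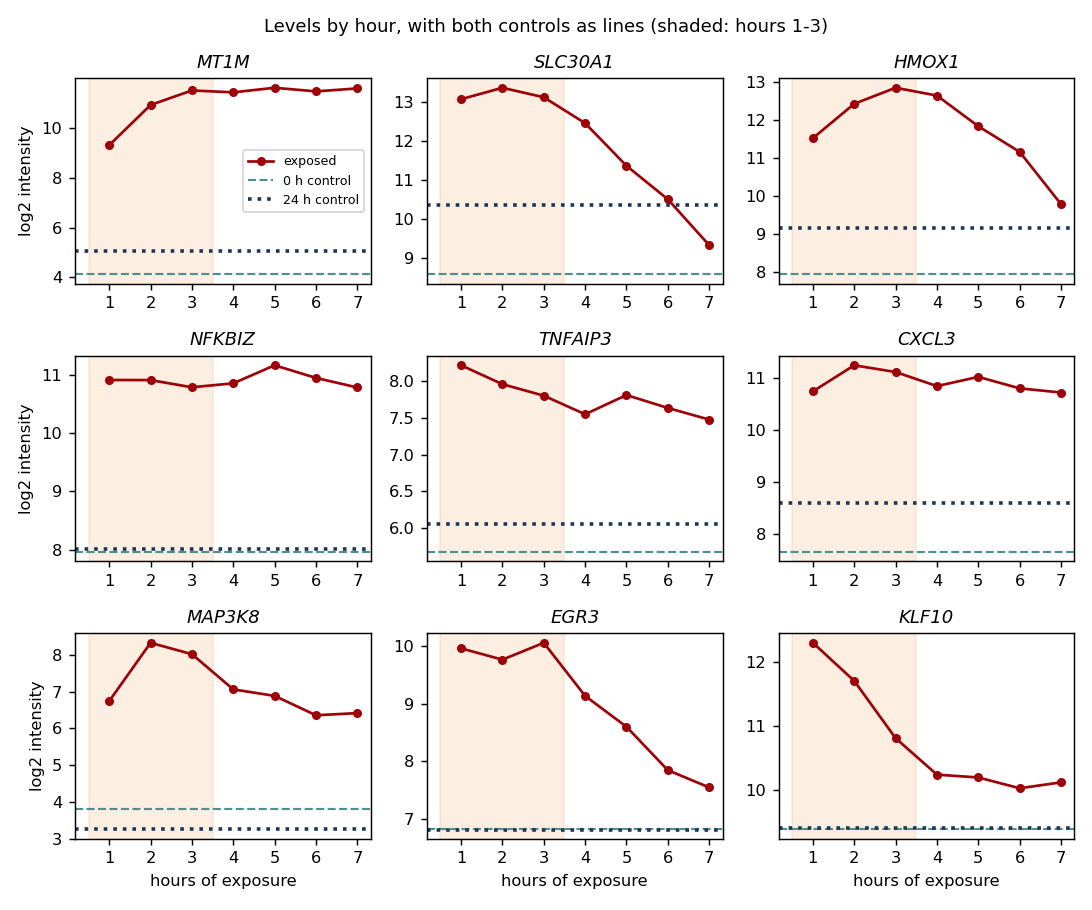
Log2 intensity of 9 genes at each hour of exposure from 1 to 7 h (points, 1 array each), with the 0 h control as a dashed line and the 24 h control as a dotted line, and hours 1 to 3 shaded. At 7 h MT1M stood at 11.60, NFKBIZ at 10.78 and CXCL3 at 10.72, clear of both control lines, whereas SLC30A1 at 9.33 was below the 24 h control and HMOX1 at 9.80 and EGR3 at 7.55 were above both lines but below their 3 h levels.

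NFKBIZ, an atypical IkB protein that turns on secondary NF-kB targets, had the smallest p. Its 1, 2 and 3 h values were 10.91, 10.91 and 10.78, against 7.97 and 8.01 in the 0 h and 24 h controls. Exposed arrays were level with each other, as were the controls, and the rise was 2.88 ± 0.12 (limma adjusted p = 3.24e-06). TNFAIP3, the deubiquitinase A20 that ends NF-kB signalling, read 8.22, 7.96 and 7.80 at 1, 2 and 3 h, against 5.67 and 6.06 in the controls. It was highest at 1 h and rose by 2.12 ± 0.16 (adjusted p = 0.00053). NFKBIA and NFKBIE, inhibitors that hold NF-kB in the cytoplasm, rose by 1.25 ± 0.14 (adjusted p = 0.00311) and 1.08 ± 0.15 (adjusted p = 0.011, 0.0598 without the 2 h array and 0.0557 against the 24 h control alone). Of 11 tested feedback inhibitors and atypical IkB proteins these 4 rose, where 0.843% of all tested genes did. The other 7 did not pass, with differences from -0.18 to 0.33. The median was 0.24 against both controls and 0.00 against the 24 h control.

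Among the NF-kB subunits REL rose by 1.10 ± 0.21 (limma adjusted p = 0.031), with values of 8.67, 9.35 and 9.43 at 1, 2 and 3 h, against 8.11 and 7.98 in the 0 h and 24 h controls. The call ended without the 2, 3 or 5 h array or the 0 h control (adjusted p = 0.143 without the last). RELB, NFKB2, NFKB1 and RELA did not pass at 0.68, 0.30, 0.22 and 0.00. RELB reached 7.63 at 3 h, against 6.08 in the 0 h control and 6.91 in the 24 h control, but its 1 h value of 6.76 lay below the 24 h control.

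MAP3K8, the kinase that carries toll-like receptor and TNF signals to ERK, read 6.75, 8.33 and 8.02 at 1, 2 and 3 h, against 3.80 and 3.25 in the 0 h and 24 h controls. The 2 h array was the highest, and no exposed array overlapped a control. The difference was 4.17 ± 0.41 (limma adjusted p = 0.00185), but both controls lay under the filter level of 5.79, the gene entered the test through its exposed arrays, and the size of the difference depends on the background level. IER3, an early-response regulator of survival, rose by 1.25 ± 0.18 (adjusted p = 0.0122, 0.0669 without the 2 h array and 0.0791 against the 24 h control alone). TNFRSF9, a receptor of the TNF family, rose by 1.68 ± 0.35 (adjusted p = 0.0438), but its controls were 5.87 at 0 h and 7.36 at 24 h, and the call held in 2 of the 9 fits. Of 18 tested NF-kB effectors these 3 rose, where 0.843% of all tested genes did. The other 15 did not pass, with differences from -0.09 to 1.5, the largest that of CD83, a marker of activated antigen-presenting cells (adjusted p = 0.0512). TNFSF9, the ligand of TNFRSF9, was not on the list and rose by 1.10 ± 0.13 (adjusted p = 0.00405).

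CXCL3, a chemokine that draws neutrophils, read 10.75, 11.25 and 11.12 at 1, 2 and 3 h, against 7.65 and 8.59 in the 0 h and 24 h controls. All 3 exposed arrays were at least 2.16 above the nearer control, and the rise was 2.92 ± 0.24 (limma adjusted p = 0.000783). CXCL1 read 12.45, 12.84 and 12.65, against 11.30 and 11.18, CXCL2 12.47, 12.39 and 12.35, against 10.50 and 11.16, and CXCL8 12.36, 12.51 and 12.27, against 11.11 and 11.30. No exposed array of these 3 genes overlapped a control, and they rose by 1.41 ± 0.12, 1.57 ± 0.17 and 1.18 ± 0.12. CXCL5 rose by 1.03 ± 0.16 (adjusted p = 0.0142, 0.0669 without the 2 h array and 0.111 against the 24 h control alone). Of 7 tested chemokines of the group 5 rose, where 0.843% of all tested genes did, 0 fell and 2 did not pass. The median was 1.41. CXCL6 was one of the 2, with 5.81 at 1 h, below the 0 h control of 5.90, but 7.48 and 7.74 at 2 and 3 h, and a difference of 1.67 (adjusted p = 0.0963). CXCL16, a membrane-bound chemokine, was the other at 0.14. Of 8 interleukins, colony-stimulating factors and CC chemokines 0 passed in limma (4 at an unadjusted p under 0.05, and 0 after cyclic loess scaling), and CSF1, CSF3 and LIF, growth factors of myeloid and stem cells, had differences of 1.18 (adjusted p = 0.108), 1.06 (0.077) and 0.66 (0.107).

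**Figure D3:**
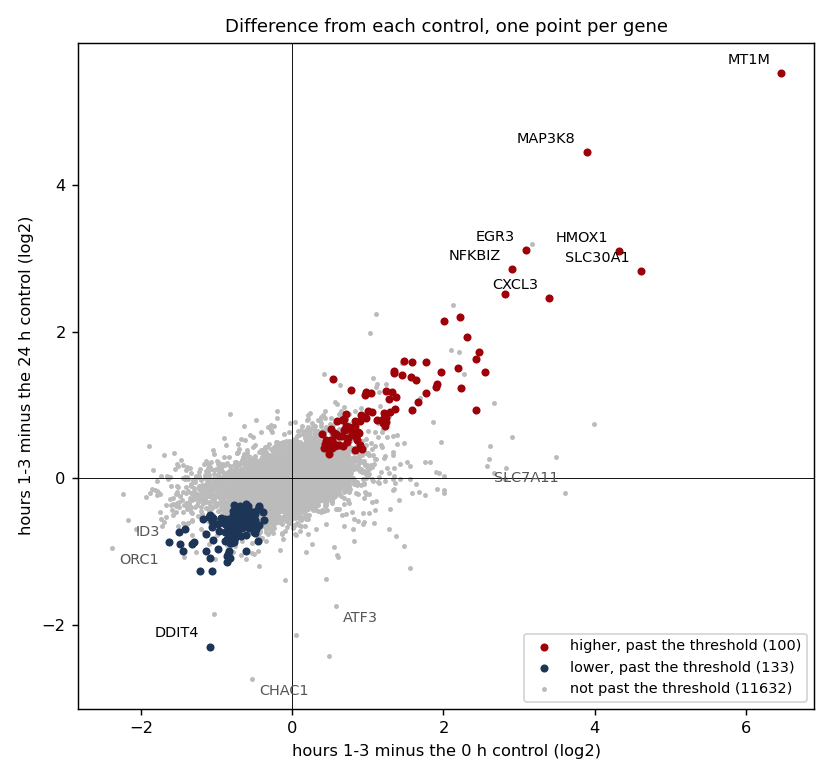
Difference of hours 1 to 3 from the 0 h control (x axis) and from the 24 h control (y axis), both in log2 units, for 11865 genes, 1 point each. The 100 risen genes lie above 0 and the 133 fallen genes below 0 on both axes, while genes such as SLC7A11, ID3 and ORC1 differ mainly along the x axis and ATF3 and CHAC1 mainly along the y axis.

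Of the first-wave transcription factors, 3 of 20 tested rose, where 0.843% of all tested genes did, 0 fell and 17 did not pass. The median was 0.40. EGR3, an immediate-early zinc finger factor, read 9.95, 9.76 and 10.05 at 1, 2 and 3 h, against 6.83 and 6.81 in the 0 h and 24 h controls, and rose by 3.10 ± 0.37 (limma adjusted p = 0.00415, and 0.0525 against the 24 h control alone). Its exposed arrays were level and about 3 units above controls that matched each other. With only the 5 arrays of hours 1 to 3 and the controls EGR3 passed (limma adjusted p = 0.000161). KLF10, a factor also raised by TGF-beta, had its peak at 1 h and declined with 12.30, 11.71 and 10.81, against 9.39 and 9.41, and its rise was 2.21 ± 0.32 (adjusted p = 0.0115, 0.0669 without the 2 h array and 0.0961 against the 24 h control alone). BHLHE40, a repressor in the circadian clock, rose by 2.03 ± 0.21 (adjusted p = 0.00254), and its paralogue BHLHE41 by 0.80 ± 0.14 (adjusted p = 0.0229, 0.104 without the 2 h array and 0.0961 against the 24 h control alone), with 2 of its 4 probe sets in that direction. EGR1 and EGR4 had differences of 1.32 (adjusted p = 0.0712) and 1.85 (0.0661), and MAFF, a small partner of AP-1 and NRF2 factors, one of 0.94 (0.0508). EGR1 read 13.47, 13.02 and 12.68, against 11.19 in the 0 h control and 12.28 in the 24 h control, so the controls were further apart than the exposed arrays.

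AP-1 is the pair of FOS and JUN proteins formed after stimulation, and 1 of 9 tested genes rose. FOSL1 rose by 0.96 ± 0.17 (limma adjusted p = 0.0233), and its call ended without the 2 or 5 h array or the 0 h control (adjusted p = 0.166 without the last). FOS read 10.54, 9.61 and 9.28 at 1, 2 and 3 h, against 7.14 in the 0 h control and 9.73 in the 24 h control. Its exposed values lay far above one control and around the other, with differences of 2.67 from the 0 h and 0.08 from the 24 h control. JUNB differed likewise by 1.76 and 0.22, and ATF3, a stress-induced factor, by 0.57 and -1.73. FOSB read 9.67, 8.17 and 7.45, against 6.16 and 7.00, above both controls at each hour, and its difference of 1.85 did not pass (adjusted p = 0.0812).

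DUSP1, the phosphatase that switches off p38 and JNK, read 11.65, 11.52 and 11.33 at 1, 2 and 3 h, against 9.73 and 10.33 in the 0 h and 24 h controls. It was the 1 of 8 tested DUSP genes to rise, by 1.47 ± 0.17 (limma adjusted p = 0.00342), and the other 7 ran from -0.21 to 0.71. ZFP36, which binds AU-rich elements and speeds the decay of cytokine mRNA, fell back hour by hour with 11.65, 10.92 and 10.40, against 8.79 and 9.49, and its rise was 1.85 ± 0.31 (adjusted p = 0.0213, 0.0927 without the 2 h array and 0.158 against the 24 h control alone). Of 15 IER, BTG and GADD45 genes 4 rose and 11 did not pass. TRIB1, a pseudokinase that directs proteins to degradation, rose by 2.08 ± 0.24 (adjusted p = 0.00338) and IER5, a regulator of the heat shock factor HSF1, by 1.39 ± 0.15 (adjusted p = 0.00256). GADD45B, a stress activator of MAP kinases, rose by 1.05 ± 0.21 and IER5L by 0.95 ± 0.21, and both calls ended without the 2 h array (adjusted p = 0.139 and 0.161). GADD45B passed in 5 of the 9 fits and ended against the 24 h control alone (0.152), and IER5L passed in 3.

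IRF1, a transcription factor shared by interferon and NF-kB signalling, read 9.52, 9.98 and 9.62 at 1, 2 and 3 h, against 8.26 and 8.30 in the 0 h and 24 h controls, and rose by 1.42 ± 0.13 (limma adjusted p = 0.00139). It was the 1 of 20 tested interferon-stimulated genes to rise, and IFI6 the 1 to fall, at -0.49 ± 0.09 (adjusted p = 0.0277, 0.0669 without the 2 h array and 0.142 against the 24 h control alone, with 4 of the 9 fits passed). The list's median was 0.07. On the list of IL-6 family and STAT3 genes 2 of 16 rose. CEBPD, a target of STAT3 and a regulator of acute-phase genes, rose by 1.24 ± 0.12 (adjusted p = 0.00139), and IL6R, the IL-6 receptor, by 1.54 ± 0.31 (adjusted p = 0.0376), whose call held in 4 of the 9 fits. SOCS2, a feedback inhibitor of cytokine receptors, lay above both controls at each hour, with 7.61, 8.33 and 8.71, against 6.08 and 5.85, yet did not pass at 2.25 (adjusted p = 0.0603). In the fit to only the 5 arrays of hours 1 to 3 and the controls SOCS2 passed (limma adjusted p = 0.0404). SOCS3, the inhibitor most tied to IL-6, differed by 0.46 (adjusted p = 0.103).

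SKIL, a repressor of SMAD proteins and itself a TGF-beta target, read 8.87, 10.24 and 10.30 at 1, 2 and 3 h, against 6.99 and 7.30 in the 0 h and 24 h controls. It rose by 2.66 ± 0.40 (limma adjusted p = 0.0131, 0.0728 without the 2 h array and 0.111 against the 24 h control alone), and its 5 probe sets shared the direction. Those probe sets differed by 2.66, 2.05, 1.05, 0.19 and 0.05, with 0.19 and 0.05 from probe sets at the level of unexpressed genes. SKI, a relative of SKIL, and the receptor TGFBR1 rose by 0.70 ± 0.10 and 0.67 ± 0.13, while ID1, a target of BMP signalling, fell by 0.64 ± 0.13. Without the 2 h array the adjusted p of SKI was 0.052, of TGFBR1 0.114 and of ID1 0.136, and against the 24 h control alone 0.0961, 0.182 and 0.217. TGFBR1 and ID1 passed in 3 of the 9 fits. Of the 14 tested TGF-beta and BMP genes these 3 and SKIL made 3 rises and 1 fall, with a median of 0.14. ID3, a further BMP target, differed by -2.17 from the 0 h control and by -0.57 from the 24 h control.

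HSPA6, a strictly inducible HSP70, read 7.35, 8.94 and 9.71 at 1, 2 and 3 h, against 5.50 and 5.48 in the 0 h and 24 h controls. It climbed at each hour, and every exposed array was above both controls by 1.85 or more. The difference of 3.18 did not pass (limma adjusted p = 0.0513). Both controls lay under the filter level of 5.79, so the size of this difference depends on the background level. DNAJB4, DNAJB1 and DNAJA1, co-chaperones of HSP70, had differences of 1.26, 0.83 and 0.67 (adjusted p = 0.0923, 0.0788 and 0.0835). In limma 0 of 15 heat shock genes passed (6 at an unadjusted p under 0.05), and 1 did after cyclic loess scaling. The list's median was 0.18. LINC00304, named because it was the remaining gene above both controls by 1 unit that did not pass and thus chosen after its values were seen, differed by 1.92 (adjusted p = 0.077). Its controls, 4.83 at 0 h and 5.19 at 24 h, also lay under the filter level.

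DDIT4, an inhibitor of the growth kinase mTORC1 raised by stress and starvation, read 11.13, 10.26 and 10.25 at 1, 2 and 3 h, against 11.64 in the 0 h control and 12.83 in the 24 h control. All exposed arrays lay below both controls, and the difference of -1.69 ± 0.34 was the largest fall past the threshold (limma adjusted p = 0.038, 0.149 without the 2 h array), a call that also ended without the 3, 5, 6 or 7 h array. It was 1 of 2 genes to fall against the 24 h control alone (adjusted p = 0.028), where 23 of 11865 genes passed (0.194%). The other was MTRFR, a mitochondrial translation release factor, with 7.77, 7.39 and 7.61, against 8.68 and 8.67. Its fall of 1.09 ± 0.12 (adjusted p = 0.00309) had the widest gap below both controls, 0.90.

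CDKN1B, the cyclin-dependent kinase inhibitor p27, read 10.36, 9.46 and 9.72 at 1, 2 and 3 h, against 11.06 and 11.11 in the 0 h and 24 h controls. It fell by 1.24 ± 0.24 (limma adjusted p = 0.0349), and the call ended without the 2, 3, 5 or 6 h array or the 0 h control (adjusted p = 0.166 without the last). CDKN1B is a target of FOXO factors, which growth factors inactivate, and on the FOXO list 2 of 23 genes fell, 1 rose and 20 did not pass. Of all tested genes 1.12% fell and 0.843% rose. TSC22D3, a glucocorticoid-induced leucine zipper protein, was the other that fell, by 0.87 ± 0.17 (adjusted p = 0.0352, 0.136 without the 2 h array and 0.18 against the 24 h control alone, with 3 of the 9 fits passed), and ARRDC3, an arrestin of receptor trafficking, rose by 1.59 ± 0.21 (adjusted p = 0.00737, 0.0654 against the 24 h control alone). TXNIP, an inhibitor of thioredoxin and glucose uptake, dropped through the 3 hours with 11.21, 10.19 and 9.62, against 11.38 and 12.18, and did not pass at -1.44 (adjusted p = 0.079). IGFBP4, a binding protein of IGF1 and IGF2, fell by 1.12 ± 0.19 (adjusted p = 0.0229, 0.106 without the 2 h array and 0.0961 against the 24 h control alone), the 1 fall among 8 tested genes of the IGF list.

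**Figure D4:**
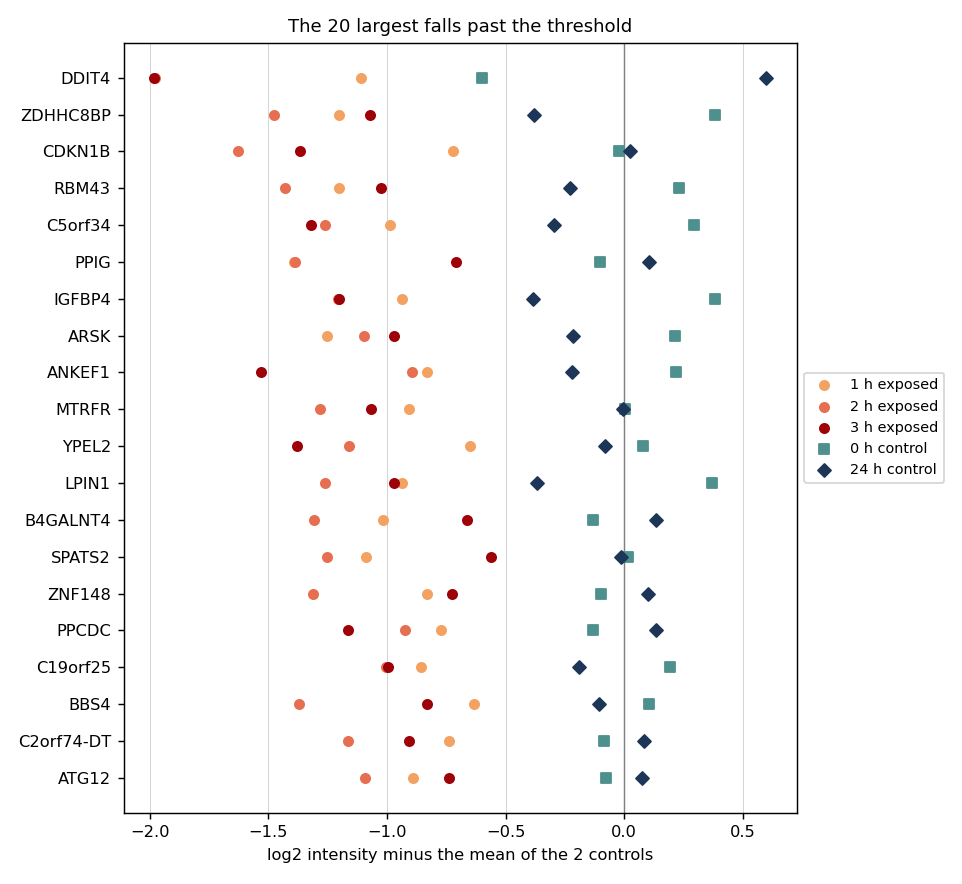
The 20 largest falls past the threshold, with log2 intensity minus the mean of the 2 controls on the x axis for the 1, 2 and 3 h arrays (circles) and the 0 h and 24 h controls (square and diamond). Every circle lies left of both controls in its row, and the gaps, at most 0.90 for MTRFR, are narrower than those of the leading rises.

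Of the 100 risen genes 42 were highest at 3 h, 30 at 2 h and 28 at 1 h, where 40.2%, 17.5% and 42.3% of all tested genes had their highest of the 3 values. Of the 133 fallen genes 91 (68.4%) were lowest at 2 h, against 51.5% of all tested genes. The 2 h array had the narrowest spread of intensities of the 10 (SD 2.41, others 2.45 to 2.51) and the lowest correlation with any other array, 0.964 with the 0 h control. The part of this array's properties in the falls was not tested beyond the fit that left it out.

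Signs of RNA quality moved with the comparison. The 5′ minus 3′ log2 difference of the actin control probe sets was -0.65, -0.59 and -0.44 at 1, 2 and 3 h, against -0.29 in both controls, while that of GAPDH was -0.09, -0.10 and -0.04, against -0.05 and -0.02. A control probe set for 28S ribosomal RNA read 10.70, 11.36 and 11.94, against 9.87 and 10.16. RNA45SN5, the ribosomal RNA precursor, was itself among the genes that rose, by 2.00 ± 0.28 (limma adjusted p = 0.011, 0.0549 without the 2 h array and 0.0525 against the 24 h control alone). Spiked bacterial poly-A transcripts averaged 9.84, 10.02 and 10.40, against 9.87 and 9.73. Their part in the results was not tested.

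The comparison with each control alone showed where the 2 controls parted. Against the 0 h control 1823 genes passed (15.4%), 574 higher (4.84%) and 1249 lower (10.5%), and against the 24 h control 23 passed (0.194%), 21 higher (0.177%) and 2 lower (0.0169%), with the lone control assumed to vary like the exposed arrays. Both comparisons share the 3 exposed arrays. Controls were 1 log2 unit or more apart in 276 genes, 100 higher and 176 lower at 24 h than at 0 h. Cell cycle genes illustrate the gap. Of 37 G1/S and replication genes 24 fell against the 0 h control, where the list's median was -1.16, and 0 passed against both controls or the 24 h control, where the median was 0.04 (-0.55 against both controls, 9 genes at an unadjusted p under 0.05). Of 41 G2/M and mitosis genes 37 fell against the 0 h control (median -1.01), and 0 passed against the 24 h control (median -0.10). Against both controls 0 of the 41 passed, 20 had an unadjusted p under 0.05, 16 lay below both controls in all 3 arrays, 0 had a difference above 0, and the median was -0.55. Of all 11865 tested genes 19.8% lay below both controls in all 3 arrays, and 5215 had a difference above 0. ORC1, of the complex that marks replication origins, differed by -2.39 (adjusted p = 0.0148) from the 0 h control and by -0.95 (0.435) from the 24 h control, and KIF20A, a kinesin of cytokinesis, by -2.24 (0.00377) and -0.22 (0.795). At an unadjusted p under 0.05, 1534 genes passed against the 24 h control, 4036 against the 0 h control and 2851 against both.

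Targets of ATF4, the factor of the amino acid response, stood differently against the 2 controls. Of 29 tested targets 15 rose against the 0 h control, where 4.84% of all tested genes did. The median of the targets was 0.81 there, and that of all tested genes -0.05. Against the 24 h control 0 targets rose, 1 fell and the median was -0.31, where that of all tested genes was -0.01. DDIT4, also on the list, was lower than both, with differences of -1.09 from the 0 h and -2.29 from the 24 h control. SLC7A11, the cystine importer, read 10.97, 10.80 and 10.86 at 1, 2 and 3 h, against 8.30 in the 0 h control and 10.70 in the 24 h control. ASNS, asparagine synthetase, read 12.88, 12.78 and 13.01, against 10.95 and 12.82. Exposed cells thus had the levels of the 24 h control for these 2 genes and lay well above the 0 h control. CHAC1, a glutathione-degrading enzyme, and ATF4 itself instead differed by -2.72 (adjusted p = 0.0961) and -1.19 (0.137) from the 24 h control, neither past the threshold.

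**Figure D5:**
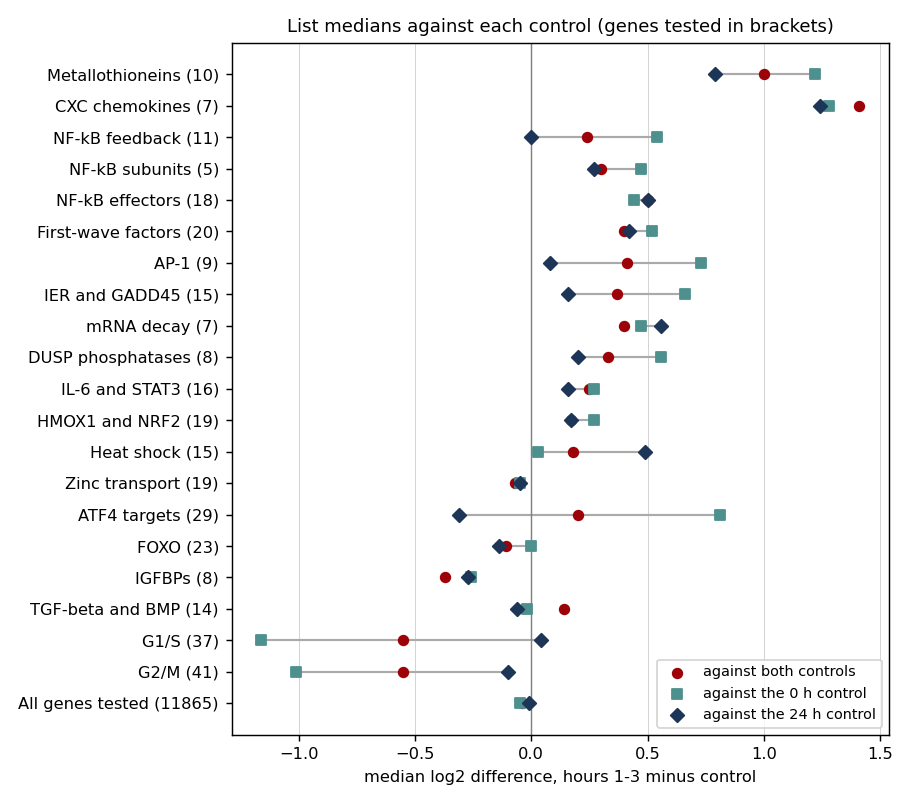
Median log2 difference of hours 1 to 3 from both controls (circles), the 0 h control (squares) and the 24 h control (diamonds) for 20 gene lists and all tested genes, with the number of genes tested in brackets and a line joining the 2 single-control medians. Metallothioneins and CXC chemokines lie at 0.79 or more against either control, whereas the ATF4, G1/S and G2/M lists span about 1 log2 unit between the controls.

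Other lists gave few or no calls against both controls. In limma 0 genes passed of the lists for ERK output (12 tested, 6 at an unadjusted p under 0.05), EGFR (10 and 5), the unfolded protein response (20 and 5), aminoacyl-tRNA synthetases (12 and 5), YAP (11 and 4), MYC (10 and 3), ribosome biogenesis (25 and 3), p53 (19 and 4), matrix and cadherin genes (14 and 5) and sterol synthesis (19 and 5). After cyclic loess scaling 1 gene of the unfolded protein response passed, and 0 of the others. Of all 11865 tested genes 2851 had an unadjusted p under 0.05, the share to set these counts against. PFKFB3, a driver of glycolysis, was the 1 rise among 25 hypoxia and glycolysis genes at 0.99 ± 0.19 (adjusted p = 0.0352), a call held in 4 of the 9 fits. BCL2L11, the pro-apoptotic protein BIM, was the 1 rise among 14 BCL2 family genes at 0.60 ± 0.10 (adjusted p = 0.0193, 0.0509 without the 2 h array and 0.12 against the 24 h control alone). Its probe sets disagreed, with differences from -0.51 to 0.60, and 5 of 7 were above 0.

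The cells carried keratin transcripts of an epithelial tumour, with KRT18 at 13.96, 13.96 and 14.14 at 1, 2 and 3 h, against 14.00 and 13.81, but EPCAM at 3.04, 3.03 and 2.87, against 3.09 and 3.20, and CDH1 were at the level of unexpressed genes. Of 12 stellate cell and fibroblast markers on the array 5 passed the filter on low values and 0 passed the limma test (3 at an unadjusted p under 0.05, and 0 after cyclic loess scaling). COL1A2 read 11.87, 11.94 and 11.71, against 12.16 and 12.23, and COL1A1 8.04, 8.30 and 7.88, against 8.01 and 8.21. COL3A1 lay below both controls in all 3 arrays with a difference of -0.60 (limma adjusted p = 0.0842). ACTA2 read 9.02, 9.07 and 9.18, against 8.51 and 8.88, and THY1 6.12, 6.37 and 5.98, against 5.95 and 6.05. Of 9 leukocyte markers 3 passed the filter and 0 the limma test (2 at an unadjusted p under 0.05), and their median difference was -0.63. CD14 lay below both controls in all 3 arrays with a difference of -0.63 (limma adjusted p = 0.08). LYZ read 6.17, 5.99 and 5.98, against 7.23 and 6.29, and CD79A 7.15, 7.19 and 6.95, against 6.69 and 7.13. The part of these markers in the results was not tested. PDGFRB read 4.43, 4.47 and 4.57, against 4.34 and 4.03, and the leukocyte marker PTPRC 3.75, 3.71 and 3.80, against 3.71 and 3.87, all at the level of unexpressed genes. Fewer cells with a transcript and less RNA per cell cannot be told apart in such bulk samples.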

How the data were processed

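RNA of MiaPaCa-2 cells was hybridised to 10 Affymetrix U133 Plus 2.0 arrays. The deposited table holds log2 intensities, and the authors used RMA, of unstated version, per the submitters' processing notes. The table of 54675 probe sets was used, and a filtered table of 7622 also deposited, whose rule is not given in the sources used here, was an alternative. Platform annotation gave 1 symbol to 41097 probe sets, several to 1801 and none to 11777. Each of 19775 genes was represented by its probe set of highest mean, and 11865 genes not under the 40th percentile of means (log2 5.79) entered the tests. In limma 3.58.1 (R 4.3.3) hours 1 to 3, hours 4 to 7 and both controls were groups of a fit to 9 arrays (6 residual degrees of freedom), so the spread within a group includes change with time, and each control alone was used in a second fit (5 degrees of freedom). Tests were two-sided, adjusted by Benjamini-Hochberg, with a threshold of 0.05. Errors are standard errors of the fit. The genes, lists and hours were chosen with earlier results of these data known. Named genes were the 20 largest rises and falls past the threshold, the 10 widest gaps beyond both controls each way, the 5 largest each way against each control alone, and of each list described all tested members up to 12, or otherwise the 6 of smallest p. TNFSF9, MT1HL1, BACH1 and LINC00304 were chosen after their values were seen. Promoters came from RefSeq tables of GRCh38.p14. Alternatives were other filters, averaging or separating probe sets, the filtered table, cyclic loess scaling, another limma prior, only the 5 arrays compared, other margins, and leaving out each array. Python 3.11.15, pandas 2.3.3 and matplotlib 3.10.9 served for tables and plots.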

Additional observations from a re-analysis of the deposited data

Results flagged for a closer look

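For 19 of the 44 genes with the largest rises, falls or gaps beyond the controls, the level in hours 4 to 7 differed from that in hours 1 to 3 past the threshold of the same limma fit, where 17.4% of all tested genes did so. These genes were chosen by their hours 1 to 3, and the difference subtracts the same arrays, so a return toward the controls is favoured by the choice and the share supports nothing. Values are log2 differences of hours 4 to 7 minus hours 1 to 3. Among genes that lay above the controls, the later hours were lower for the zinc exporter SLC30A1 at -2.27 (adjusted p = 0.0382), the chaperone HSPA6 at -1.97 (0.0447), the transcription factors EGR3 at -1.64 (0.0135), KLF10 at -1.46 (0.0124) and BHLHE40 at -0.96 (0.0128), the pseudogene NMRAL2P at -1.26 (0.0199), the mRNA decay factor ZFP36 at -1.04 (0.0279) and the pseudokinase TRIB1 at -0.95 (0.0164). The sialic acid enzyme gene NPL was the 1 among them that was still higher later, at 0.99 (0.0413). Among genes that had fallen, later hours were higher for PPIG at 0.87 (0.0219), SPIRE2 at 0.77 (0.00997), MTRFR at 0.70 (0.00894), ZNF148 at 0.67 (0.029), SPATS2 at 0.56 (0.0443), ARSK at 0.48 (0.0436), CENPL at 0.42 (0.0302), FAM131A at 0.41 (0.028) and C19orf25 at 0.38 (0.0393), and lower for ANKEF1 at -0.60 (0.0434).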

How the results depend on the processing

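The count of 233 genes past the threshold against both controls (100 higher, 133 lower) was 801 with each probe set on its own (226 and 575), 358 in the filtered table (127 and 231) and 26 with only the 5 arrays compared (25 and 1), and ran from 23 to 1823 when 1 array was left out. Counts of 175 without a filter, 211 at the 60th percentile, 340 with averaged probe sets (97 higher, 243 lower), 293 after cyclic loess scaling and 295 with another prior stayed within 1.5 times. The 1823 against the 0 h control were 3089, 936 and 800 under the first 3 of these settings, and 1145 to 2040 with 1 array left out. The 23 against the 24 h control were 112, 41 and 12, and 56 with another prior, and 5 to 141 with 1 array left out. The 4231 genes beyond both controls were 6472 without a filter, 2796 at the 60th percentile, 9341 as probe sets and 1910 in the filtered table, and 4231 to 8486 with 1 array left out. The 26 beyond by 1 unit were 132 at 0.5 and 7 at 2 units, 17 with the mean of probe sets, 56 as probe sets and 26 to 247 with 1 array left out, and the 0 below became 57 at 0.5 units, 8 as probe sets, 2 in the filtered table, and 6, 8, 4 and 142 without the 1 h array, the 3 h array, the 0 h and the 24 h control. BCL2L11 reversed to -0.51 in the filtered table, which is the difference of a probe set other than the one used here. RELA reversed to -0.073 against the 24 h control, -0.22 with averaged probe sets and -0.096 to 0.076 with 1 array left out. ATF3, whose controls read 7.23 at 0 h and 9.54 at 24 h, reversed to 0.57 against the 0 h control. It ran from -1.73 to 0.57 with 1 array left out. Beyond these values the causes were not tested. No paired analysis was possible because each time has 1 array and the labels carry no replicate numbers.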
